A study of Mus musculus with 17 samples.

Results

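The 33 genes described here lie on mouse chromosome 16 and correspond to human 22q11. They were taken by a list of gene names and by their chromosome in the tables, and all 33 were found among 55385 listed genes. They cover 1.69 Mb (GRCm38 chromosome 16, 17280351 to 18970309) and end 56.6 Mb before the segment, Lipi to Zbtb21, that is duplicated in Dp16 mice. The members are therefore present in 2 copies in every group, on the same chromosome as the duplication. Polyadenylated RNA of the whole hippocampus was counted in 17 mice without treatment, aged 17.1 to 18.0 weeks, with 1 library per mouse. WT mice were C57BL/6J (n = 6, 3 females and 3 males). Dp16 mice (n = 6, 3 females and 3 males) carry an extra copy of the segment, whose genes correspond to human chromosome 21. In Dp16_2xIFNRs mice (n = 5, 3 females and 2 males) the same duplication is combined with a normal dosage of the interferon receptor genes of that segment. The duplication is inherited and so present in every cell type of the tissue. In whole tissue, fewer cells of a type and less RNA per cell cannot be told apart.

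Loss of 1 copy of this region in people causes 22q11.2 deletion syndrome, which includes the DiGeorge and velocardiofacial syndromes and carries a raised risk of schizophrenia. Tbx1, a T-box transcription factor, is needed for the pharyngeal arches and the outflow tract of the heart. Dgcr8 is the RNA-binding partner of Drosha in the microprocessor, which cuts primary microRNAs, and Rtn4r is the Nogo receptor of axons. Prodh starts proline breakdown in mitochondria, and Zdhhc8 adds palmitate to neuronal proteins.

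The members are densely packed, and several start back to back. There were 5 divergent pairs (starts on opposite strands within 1000 bases of each other): Ranbp1 with Trmt2a, Tango2 with Arvcf, Mrpl40 with Hira, Cdc45 with Ufd1, and Pi4ka with Snap29. They hold 10 of the 33 members (30.3%), against 10.9% of 21755 protein-coding genes. The distance between annotated starts was 53 bases for Ranbp1 and Trmt2a, 79 bases for Tango2 and Arvcf, and 328 bases for Pi4ka and Snap29. In GENCODE the gene models of Ranbp1 and Trmt2a, of Cdc45 and Ufd1, and of Pi4ka and Snap29 overlap at their starts on opposite strands, while those of the other pairs do not. A gene on the opposite strand overlaps 19 members and one on the same strand overlaps 9, 6 having both, while 11 members, Tbx1 and Lztr1 among them, overlap no other gene. RefSeq promoter windows (GRCm38.p6, 250 bases before to 50 after the start) were given for 32 of the 33 members. Their median share of G and C was 64.3%, against 57.0% over 16433 windows of protein-coding genes. The ratio of observed to expected CpG had a median of 0.797, against 0.601, and it was above 0.6 in 25 of 32 members (78.1%), against 50.1% of all windows. The motif TATAAA, on either strand, was in 4 of 32 windows (12.5%; Pi4ka, P2rx6, Cdc45 and Ufd1), against 12.8% of all windows. The palindromic consensus of the factor NRF1 was in 0 of 32 windows on either strand, against 1.38%. A match is a string of letters only.

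A pair of stretches is printed: the 250 bases before the GENCODE start of Tbx1, the 1 member that passed the test in Dp16 against WT, and the stretch between the RefSeq starts of Ranbp1 and Trmt2a, the divergent pair whose GENCODE starts are closest. By RefSeq starts its stretch is the longest of the 4 pairs whose stretch fits the promoter windows, at 188 bases against 83 to 134. The first listed RefSeq starts of Cdc45 and Ufd1, 18811972 and 18812294, lie farther apart, beyond the reach of these windows. Capitals mark CpG dinucleotides. The Tbx1 stretch is chr16:18590672-18590921, read on the minus strand. The Ranbp1 and Trmt2a stretch is chr16:18248695-18248882, read on the plus strand, with Trmt2a to its right. Both are RefSeq sequence of GRCm38.p6.
Tbx1 upstream: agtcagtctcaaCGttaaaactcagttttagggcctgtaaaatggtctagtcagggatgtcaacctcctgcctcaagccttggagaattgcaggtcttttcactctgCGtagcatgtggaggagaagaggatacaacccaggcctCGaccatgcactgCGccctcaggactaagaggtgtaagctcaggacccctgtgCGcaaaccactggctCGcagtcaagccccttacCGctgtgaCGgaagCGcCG
Ranbp1-Trmt2a: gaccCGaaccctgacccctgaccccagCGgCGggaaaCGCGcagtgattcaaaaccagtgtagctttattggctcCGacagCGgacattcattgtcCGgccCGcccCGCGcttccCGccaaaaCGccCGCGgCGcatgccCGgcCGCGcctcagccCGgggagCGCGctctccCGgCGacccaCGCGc
The stretches differ in CpG content. The Tbx1 stretch holds 10 CpG in 250 bases, with an observed to expected ratio of 0.541. The Ranbp1 and Trmt2a stretch holds 26 in 188 bases, with a ratio of 1.17. Neither holds TATAAA. RefSeq gives a second start of Tbx1, 1772 bases downstream of the one shown, and its window is the one counted above. That window holds 26 CpG with a ratio of 0.729, against 16 and 0.633 in the same window around the start shown. Which start is used in these libraries was not tested.

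Each library held 30.4 to 33.1 M counts (M, mega), and edgeR's common estimate of the variation among mice was 14.1%. Neuronal markers, summed over 9 genes, reached 8909 to 12062 CPM (counts per M of the scaled library), and the sum over 8 hippocampal granule and pyramidal markers was 653 to 854 CPM. All 9 neuronal markers had a positive log2 fold change in Dp16 against WT. In Dp16_2xIFNRs, 3 of the 9 were positive against WT and 0 against Dp16, and 0 were called in any genotype comparison. Markers of the choroid plexus, a tissue next to the hippocampus, varied widely, from 227 to 8868 CPM in WT, 272 to 7183 in Dp16 and 341 to 6194 in Dp16_2xIFNRs. They were nearly absent in 3 libraries, WT replicate 6 (227 CPM), Dp16 replicate 6 (272) and Dp16_2xIFNRs replicate 5 (341), and at 3450 CPM or more in the others. Of the 12 choroid plexus markers, none was at 0, and all 12 had a negative log2 fold change in Dp16 against WT without passing the test. In Dp16_2xIFNRs against WT, 2 of the 12 were positive, and in Dp16_2xIFNRs against Dp16 all 12 were, with 0 called. Beyond leaving out the 3 libraries, the part of choroid plexus RNA in the members' values was not tested. Of 6 markers of meningeal fibroblasts and mural cells, 5 were positive in Dp16_2xIFNRs against WT, with a median log2 fold change of 0.34. Of these 6, edgeR called 0, and 2 had an unadjusted p under 0.05. Their sum was 224 ± 13.9 CPM in WT (SD, n = 6), 237 ± 8.05 in Dp16 (SD, n = 6) and 252 ± 14.1 in Dp16_2xIFNRs (SD, n = 5), and the part of these cells in the members' values was not tested.

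All 33 members were detected at a level that could be tested. On the deposited RPKM scale, which is per length and allows genes to be compared, 10 members had a WT mean of at least 20 RPKM, 19 lay between 1 and 20, and 4 were under 1. The highest was Lztr1, an adaptor of cullin 3 ubiquitin ligases, at 48.3 ± 3.73 RPKM (SD, n = 6). Ranbp1, a cofactor of the Ran nuclear transport GTPase, followed at 41.2 ± 2.32 RPKM (SD, n = 6). Pi4ka, the lipid kinase that makes phosphatidylinositol 4-phosphate at the plasma membrane, had 38.1 ± 2.09 RPKM (SD, n = 6), and Rtn4r had 34.7 ± 4.36 RPKM (SD, n = 6). At the low end stood Cdc45, a replication helicase factor of dividing cells, at 0.751 RPKM, Tbx1 at 0.53, and Gp1bb, a platelet glycoprotein subunit, at 0.176. In this order, only 3 of the 32 neighbouring pairs had WT ranges that did not overlap: Lztr1 above Ranbp1, Arvcf above Txnrd2, and Txnrd2 above Serpind1.

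**Figure D1:**
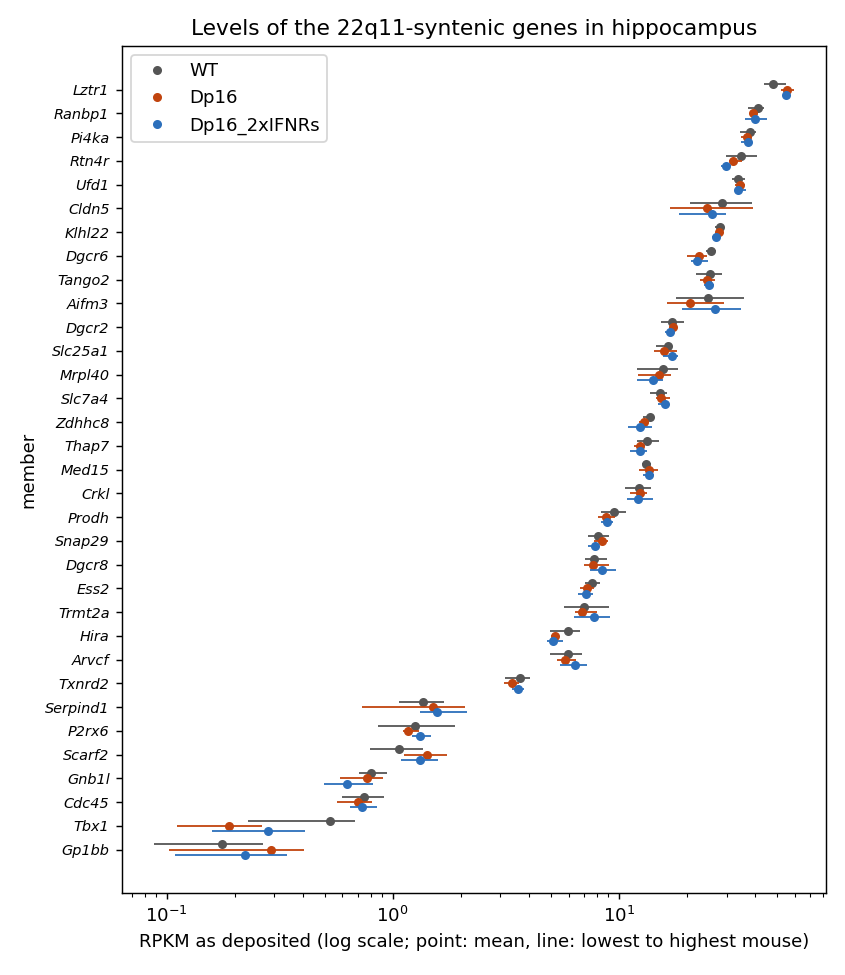
Deposited RPKM of the 33 members (log axis) by group, ordered by the WT mean; points are group means and lines run from the lowest to the highest mouse (WT n = 6, Dp16 n = 6, Dp16_2xIFNRs n = 5). Lztr1 is highest and Gp1bb lowest, and the groups lie close together for most members but Tbx1.

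As a set, the members stayed near their WT level in both groups with the duplication. The median log2 fold change over the 33 members was -0.03 in Dp16 against WT and -0.04 in Dp16_2xIFNRs against WT. The median over all 18983 tested genes was -0.01 and 0.00. Over the 122 tested genes of the duplicated segment it was 0.54 and 0.54, where 3 copies against 2 would give 0.58. The other 432 tested genes of chromosome 16 outside the segment had medians of 0.01 and 0.02. A positive log2 fold change was found in 12 of 33 members in each of these comparisons, which share the WT mice, against 48.1% and 51.1% of all tested genes. Values within 0.2 of 0 were found for 27 of 33 members (81.8%) in Dp16 and 26 of 33 (78.8%) in Dp16_2xIFNRs, against 77.2% and 69.2% of all tested genes.

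The same holds mouse by mouse. The median log2 ratio of the members to the WT mean, over 31 members with at least 1 CPM, ran from -0.03 to 0.07 in the 6 WT mice, from -0.05 to -0.01 in the 6 Dp16 mice, and from -0.08 to 0.00 in the 5 Dp16_2xIFNRs mice. These ranges overlapped, and WT replicate 6, a library nearly free of choroid plexus, was the highest of the 17. The same median over the duplicated segment ran from 0.55 to 0.58 in Dp16 and from 0.53 to 0.56 in Dp16_2xIFNRs, far from the WT range of -0.03 to 0.03.

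**Figure D2:**
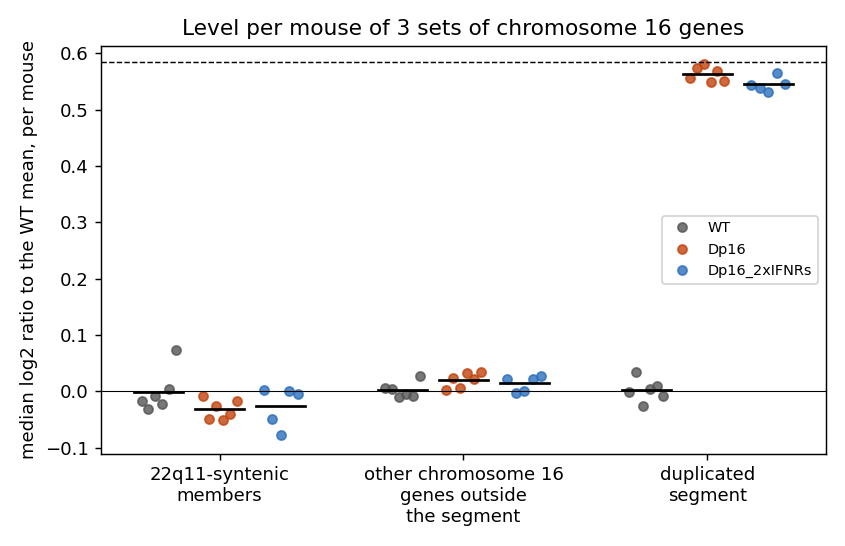
Median log2 ratio to the WT mean per mouse for the members, for other chromosome 16 genes outside the segment and for the duplicated segment; each point is a mouse, short bars are group means, and the dashed line marks a ratio of 1.5. Members lie between -0.08 and 0.07 in all 17 mice, while the segment lies between 0.53 and 0.58 in the mice with the duplication.

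A fold change of 1.5, the ratio of 3 to 2 copies, was then tested directly in edgeR. In both comparisons with WT, 30 of 33 members (90.9%) were called below 1.5-fold, against 82.6% of all tested genes in Dp16 and 76.3% in Dp16_2xIFNRs. The 95% interval lay wholly below 1.5-fold for 31 members (93.9%) in Dp16, against 83.7% of all tested genes, and for 30 (90.9%) in Dp16_2xIFNRs, against 77.6%. Of the 122 segment genes, 8 and 17 were called below it. The members not called were Serpind1, Scarf2 and Gp1bb, which had means of 3.23, 4.5 and 0.481 CPM. For the 26 members with a mean of at least 10 CPM, log2 fold changes in Dp16 ran from -0.25 to 0.21, and no 95% interval reached above 0.32, a fold of 1.25. In Dp16_2xIFNRs they ran from -0.23 to 0.19, with a highest bound of 0.44. The median half-width of these intervals was 0.13 in both, so smaller changes in a typical member were not detectable at this depth and number of mice. Calls used an adjusted p over all tested genes, which is stricter. Lztr1 in Dp16, at a log2 fold change of 0.21, was not called (edgeR adjusted p = 0.0801). The 7 members under 10 CPM had median half-widths of 0.33 and 0.35.

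**Figure D3:**
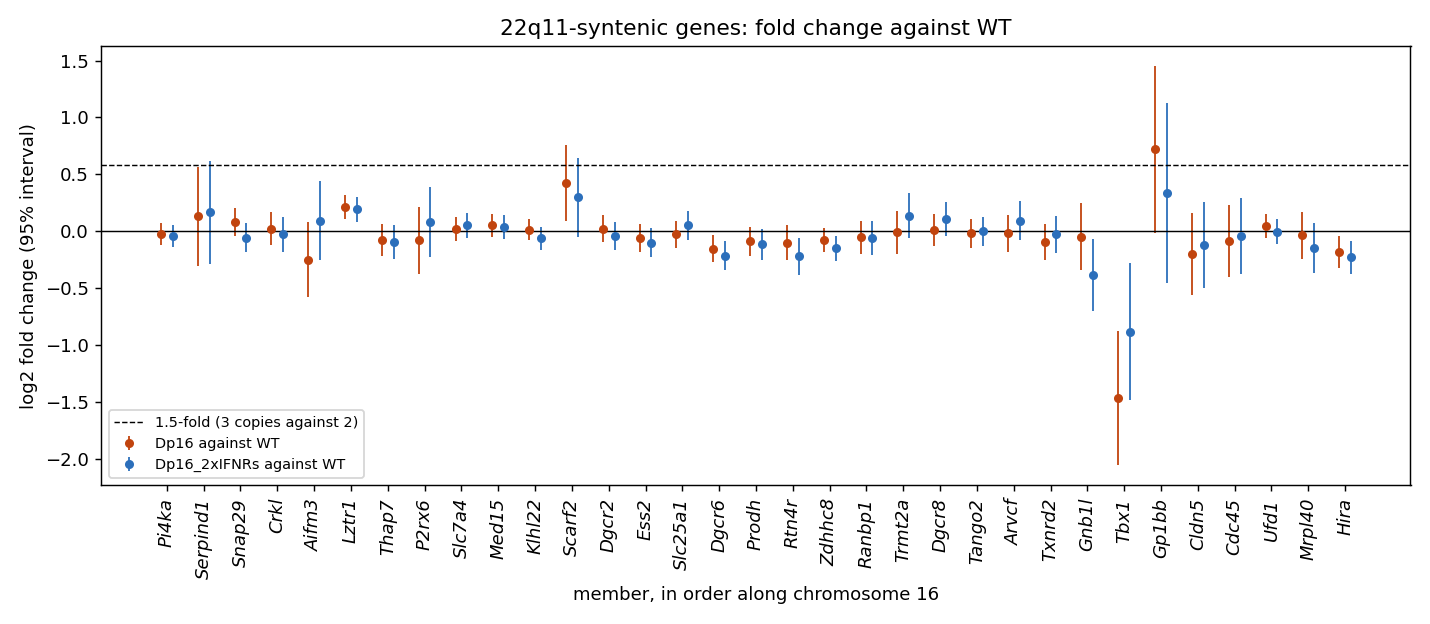
Log2 fold change against WT with its 95% interval (edgeR, 13 residual degrees of freedom) for the 33 members in their order along chromosome 16, in Dp16 and in Dp16_2xIFNRs; the dashed line marks 1.5-fold. Most points lie within 0.2 of 0, Tbx1 is the lowest at -1.47 in Dp16, and the widest intervals belong to Gp1bb and Tbx1.

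In Dp16 against WT, edgeR called 1 of 33 members at an adjusted p under 0.05, Tbx1, which was lower. Over all tested genes, 0.537% were called in this comparison, 62 of the 102 in the duplicated segment. Of the 432 other tested genes of chromosome 16 outside the segment, 0 were called, and of genes on other chromosomes 0.212%. At an unadjusted p under 0.05 there were 5 of 33 members (15.2%), against 9.58% of all genes. In Dp16_2xIFNRs against WT, edgeR called 0 of 33, against a background of 0.98%, with 7 of 33 (21.2%) under an unadjusted p of 0.05, against 17%. The segment held 66 of the 186 called genes there. Of the 432 other chromosome 16 genes 1 was called, and of genes on other chromosomes 0.647%. DESeq2 called 2 members there, Lztr1 and Dgcr6, among 636 of 35644 genes with any count, a wider set than the 18983 of edgeR. limma-voom called 0 members. With 0.1 or 1 added, limma-trend on log2 RPKM called 1 member, Lztr1, among 219 or 210 of 18983 genes. In Dp16_2xIFNRs against Dp16, edgeR called 0 of 33, against 0.0158% of all genes, with 3 of 33 (9.09%) under an unadjusted p of 0.05, against 10.5%. DESeq2, limma-voom and limma-trend also called 0 in that comparison. The CPM of every member overlapped between the groups in each comparison, where 0.99%, 2.17% and 0.616% of all tested genes did not overlap in Dp16 against WT, Dp16_2xIFNRs against WT and Dp16_2xIFNRs against Dp16.

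Among the transcription and chromatin regulators, Tbx1 fell in Dp16. The WT mice had 0.617, 1.73, 1.56, 1.2, 1.8 and 1.57 CPM in replicates 1 to 6, the Dp16 mice 0.489, 0.439, 0.291, 0.652, 0.718 and 0.476, and the Dp16_2xIFNRs mice 0.743, 0.409, 1.08, 0.54 and 0.962. All 6 Dp16 mice lay below the WT median and 4 lay below the whole WT range. WT replicate 1 was the single WT mouse within the Dp16 range. The log2 fold change was -1.47 ± 0.28 (SE; 95% interval -2.06 to -0.88), with an edgeR adjusted p of 0.0128. These values rest on few reads, 20 to 58 counts per WT library, 9 to 23 per Dp16 library and 13 to 34 per Dp16_2xIFNRs library. In Dp16_2xIFNRs the log2 fold change was -0.88 ± 0.29 against WT (SE; edgeR adjusted p = 0.14) and 0.59 ± 0.31 against Dp16 (SE; edgeR adjusted p = 0.509). The difference between the mutant groups thus did not pass, and its interval of -0.06 to 1.23 leaves room for equal levels and for a rise. Without the 3 libraries nearly free of choroid plexus the edgeR adjusted p for Dp16 was 0.0571, at a log2 fold change of -1.44. Those libraries had 1.57 (WT), 0.476 (Dp16) and 0.962 CPM of Tbx1 (Dp16_2xIFNRs), each inside the range of its own group's other mice. Over all alternatives the adjusted p, by edgeR, DESeq2 or limma, ran from 0.000208 to 0.0571.

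Hira, a chaperone that places histone H3.3 on chromatin outside replication, had negative log2 fold changes that did not pass the test. The lowest, median and highest values were 23.4, 28.9 and 32.3 CPM in WT and 23.3, 25 and 26.4 in Dp16, and the Dp16_2xIFNRs mice had 24.7, 22.5, 26.3, 22.7 and 23.7 CPM. All 6 Dp16 and all 5 Dp16_2xIFNRs mice were below the WT median, with overlap between the groups. Log2 fold changes were -0.18 ± 0.07 (SE) in Dp16, with an edgeR adjusted p of 0.393, and -0.23 ± 0.07 (SE) in Dp16_2xIFNRs, with 0.118. Without WT replicate 2, Hira passed in Dp16_2xIFNRs against WT (log2 fold change -0.28, edgeR adjusted p = 0.0379; 0.0379 to 0.269 over all alternatives). Med15, a subunit of the Mediator complex, had log2 fold changes of 0.05 and 0.04 in Dp16 and Dp16_2xIFNRs against WT. For Thap7, a zinc finger corepressor, they were -0.08 and -0.09, and for Ess2, a nuclear protein tied to splicing, -0.06 and -0.10. None of these 3 passed. Of 7 genes of the Hira chaperone and its histones and 26 other Mediator subunits, 0 were called in any genotype comparison. H3f3b and H3f3a, which both encode H3.3, had log2 fold changes of 0.04 and -0.12 in Dp16. In Dp16_2xIFNRs against WT they were -0.02 and -0.24. Med13 had 0.01 and 0.08 in these comparisons. The means of Med15, Thap7 and Ess2 over all mice were 48.8, 16.5 and 20.8 CPM.

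**Figure D4:**
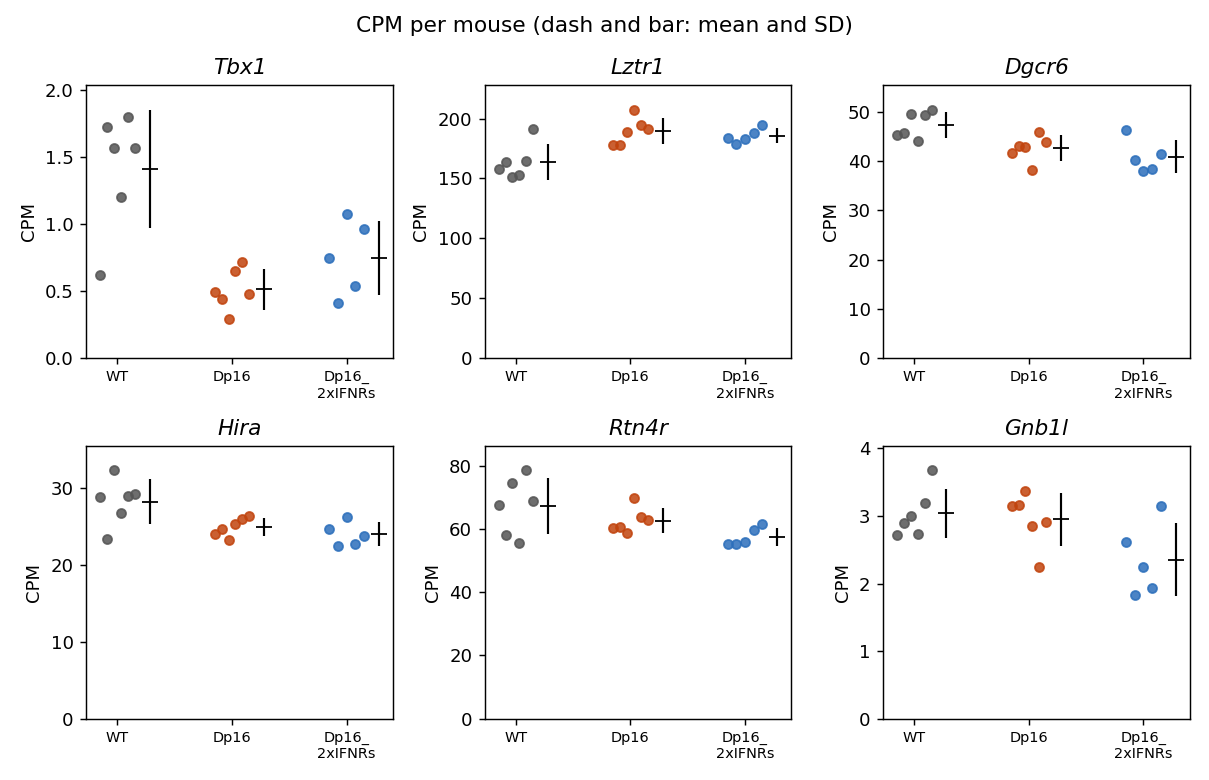
CPM per mouse of Tbx1, Lztr1, Dgcr6, Hira, Rtn4r and Gnb1l in WT, Dp16 and Dp16_2xIFNRs, with the mean and SD beside the points (axes start at 0). Tbx1 is lower in Dp16 (0.29 to 0.72) than in all WT mice but replicate 1, while the other 5 genes shift by less and overlap between groups.

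Dgcr8 and Trmt2a represent RNA processing. Dgcr8 had 31, 33.3 and 37.1 CPM (lowest, median, highest) in WT, 30.5, 33.7 and 38.6 in Dp16 and 32.5, 40.6, 36.9, 36.8 and 34.1 in the 5 Dp16_2xIFNRs mice. The groups overlapped throughout. Log2 fold changes against WT were 0.01 ± 0.07 in Dp16 (SE; edgeR adjusted p = 0.985) and 0.11 ± 0.07 in Dp16_2xIFNRs (SE; edgeR adjusted p = 0.44). Trmt2a, a methyltransferase of transfer RNA whose end overlaps that of Dgcr8 on the other strand, had log2 fold changes of -0.01 and 0.14. Of 10 other genes of the microprocessor and microRNA pathway, 0 were called in any genotype comparison, with medians of 0.01, 0.06 and 0.12 in Dp16 against WT, Dp16_2xIFNRs against WT and Dp16_2xIFNRs against Dp16. The helicases Ddx5 and Ddx17 had log2 fold changes in Dp16 of 0.01 and -0.11, and Ago2, which loads microRNAs, 0.02.

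The members of the ubiquitin system include Lztr1, the highest of the 33 per length. Lztr1 had 158, 164, 151, 153, 165 and 191 CPM in WT replicates 1 to 6, 178, 178, 189, 207, 195 and 191 in Dp16 and 184, 179, 183, 188 and 195 in Dp16_2xIFNRs. All 11 mice with the duplication were above the WT median, and WT replicate 6 lay among them, away from the other 5 WT mice. The log2 fold change was 0.21 ± 0.05 in Dp16 (SE; 95% interval 0.11 to 0.32; edgeR adjusted p = 0.0801) and 0.19 ± 0.05 in Dp16_2xIFNRs (SE; 95% interval 0.08 to 0.30; edgeR adjusted p = 0.0913), which misses the threshold in both. Without WT replicate 6 it passed in both, with log2 fold changes of 0.26 (edgeR adjusted p = 0.00575) and 0.23 (edgeR adjusted p = 0.0191). Over all alternatives the adjusted p, by edgeR, DESeq2 or limma, ran from 0.00575 to 0.213 and from 0.0191 to 0.197. Lztr1 also passed in Dp16 without the 3 libraries nearly free of choroid plexus, WT replicate 6 among them (0.26, edgeR adjusted p = 0.0163). In that comparison and setting Lztr1 and not Tbx1 was the called member. In Dp16_2xIFNRs against WT, Lztr1 did not pass without these libraries (0.20, edgeR adjusted p = 0.0823). The difference between Dp16_2xIFNRs and Dp16 was -0.02 ± 0.05 (SE). Klhl22, another cullin 3 adaptor, had log2 fold changes of 0.01 and -0.06, and Ufd1, a cofactor of the p97 segregase, 0.04 and -0.01. Their levels were close between mice, 65.5 to 79 CPM and 66.3 to 77.8 CPM over all 17. Of 10 other genes of the cullin 3 group, 0 were called, among them Cul3, the scaffold of these ligases, at 0.05 in Dp16. Of 6 p97 partners, 0 were called, with Vcp, which is p97 itself, at -0.01.

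Receptors and other cell surface proteins came next. Rtn4r had 55.6, 68.3 and 78.5 CPM (lowest, median, highest) in WT, 58.6, 61.7 and 69.9 in Dp16 and 55.1, 55.2, 55.7, 59.7 and 61.4 in the Dp16_2xIFNRs mice. All 5 Dp16_2xIFNRs mice were below the WT median, and 2 were below the WT range. On the log2 scale its fold change was -0.10 ± 0.07 in Dp16 (SE; edgeR adjusted p = 0.696) and -0.22 ± 0.08 in Dp16_2xIFNRs (SE; edgeR adjusted p = 0.165). Without WT replicate 4 the second value passed (-0.27, edgeR adjusted p = 0.0368; 0.0368 to 0.401 over all alternatives). Of 9 other genes of Nogo receptor signalling, 0 were called, with Rtn4, the ligand Nogo, at 0.04 and the coreceptor Lingo1 at 0.01 in Dp16. In Dp16_2xIFNRs against WT, Rtn4 was at -0.03 and Lingo1 at -0.13. Scarf2, a scavenger receptor family member, had 3.8 ± 0.914 CPM in WT (SD, n = 6), 5.09 ± 0.833 in Dp16 (SD, n = 6) and 4.65 ± 0.717 in Dp16_2xIFNRs (SD, n = 5). It was above the WT median in all 11 mice with the duplication, at log2 fold changes of 0.42 ± 0.16 (SE; edgeR adjusted p = 0.396) and 0.30 ± 0.17 (SE; edgeR adjusted p = 0.369). Dgcr2, a membrane protein with a C-type lectin domain, had log2 fold changes of 0.02 and -0.04, and P2rx6, a P2X receptor subunit, -0.08 and 0.08. Of the 5 other P2X receptor genes that could be tested, 0 were called.

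Gp1bb was the least abundant member. It had 0.185, 0.374 and 0.554 CPM (lowest, median, highest) in WT, 0.214, 0.639 and 0.869 in Dp16 and 0.291, 0.22, 0.698, 0.444 and 0.641 in Dp16_2xIFNRs, from 6 to 28 counts per library. Its log2 fold change was 0.72 ± 0.35 in Dp16 (SE; 95% interval -0.01 to 1.45; edgeR adjusted p = 0.525) and 0.34 ± 0.38 in Dp16_2xIFNRs (SE; edgeR adjusted p = 0.679), so neither a doubling nor an unchanged level lies outside the first interval. Gp1bb overlaps Sept5 on the same strand. Sept5 had 5638 to 6812 counts per library, and reads in the shared stretch fit both genes, so the value of Gp1bb is uncertain. Of the other genes of its platelet receptor complex only Gp5 could be tested, at 0.10 in Dp16. The markers of platelets and megakaryocytes, another source of Gp1bb, summed to 1.68 to 3.23 CPM over all mice, with overlap between groups.

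Cldn5, the claudin of the blood-brain barrier, varied more between mice than between genotypes. It had 29.6, 39.1 and 56.4 CPM (lowest, median, highest) in WT, 24.5, 31.7 and 56.2 in Dp16 and 36.4, 25.4, 41.3, 37.9 and 40.7 in the Dp16_2xIFNRs mice. Log2 fold changes were -0.20 ± 0.17 (SE; edgeR adjusted p = 0.75) and -0.12 ± 0.18 (SE; edgeR adjusted p = 0.777). Its biological coefficient of variation was 20.8%, against 6.07% for Klhl22, the lowest of the set. Summed endothelial markers varied less, 263 to 319.9 CPM over all mice, and overlapped between groups. Of 17 endothelial and tight junction genes, 0 were called, with Tjp1, a scaffold of tight junctions, at 0.13 in Dp16. Arvcf, an armadillo protein of cadherin junctions, had log2 fold changes of -0.02 and 0.09.

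Membrane traffic and lipid enzymes were near WT. Snap29, a SNARE of autophagosome fusion, had 26, 27.3 and 31.6 CPM (lowest, median, highest) in WT, 26.8, 29.5 and 31.9 in Dp16 and 27, 26.8, 26.3, 27.9 and 25.5 in Dp16_2xIFNRs. It had the smallest unadjusted p of the set between Dp16_2xIFNRs and Dp16, at a log2 fold change of -0.14 ± 0.06 (SE; edgeR adjusted p = 0.446), and values against WT of 0.08 and -0.06. Zdhhc8 had 62.9, 66.6 and 70.9 CPM in WT, 60.3, 62.8 and 66.8 in Dp16 and 55.5, 66.1, 63.1, 61.4 and 54.3 in Dp16_2xIFNRs. All 5 Dp16_2xIFNRs mice and 5 of 6 Dp16 mice were below the WT median. Its log2 fold change was -0.08 ± 0.05 in Dp16 (SE; edgeR adjusted p = 0.658) and -0.15 ± 0.05 in Dp16_2xIFNRs (SE; edgeR adjusted p = 0.166). Of 20 other palmitoyltransferase genes, 0 were called, and their medians were 0.02 in both comparisons with WT. Pi4ka had the highest CPM of the set, 228 to 268 over all mice, with log2 fold changes of -0.02 and -0.04. Of 6 genes of its complex and 8 SNARE genes, 0 were called. Snap25, the SNARE of synaptic vesicles, was at 0.02 in Dp16 and -0.13 in Dp16_2xIFNRs against WT.

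Mitochondrial and metabolic members included Prodh, Txnrd2, Slc25a1, Mrpl40 and Aifm3. Prodh had 23.4, 27 and 29.6 CPM (lowest, median, highest) in WT, 23.7, 25.1 and 27.9 in Dp16 and 27, 25.6, 23.2, 23.9 and 25.6 in Dp16_2xIFNRs. Its log2 fold changes were -0.09 ± 0.06 (SE; edgeR adjusted p = 0.682) and -0.12 ± 0.07 (SE; edgeR adjusted p = 0.379). The groups overlapped, and 0 of 5 other tested genes of proline metabolism were called. Txnrd2, the thioredoxin reductase of mitochondria, had 10.9, 12.3 and 14.4 CPM in WT, 10.6, 11.7 and 12.7 in Dp16 and 13.2, 11.3, 12.1, 12 and 12.7 in Dp16_2xIFNRs, at log2 fold changes of -0.10 ± 0.07 (SE) and -0.03 ± 0.08 (SE). Neither passed, and 0 of 6 thioredoxin-related genes, 2 of which are the paralogs Txnrd1 and Txnrd3, were called. Slc25a1, the citrate carrier, had log2 fold changes of -0.03 and 0.05, and 0 of 8 genes of citrate handling were called, with Acly, which cleaves citrate, at 0.03 in Dp16. Tango2 had -0.02 and 0.00, and Slc7a4, of the cationic amino acid transporter family, 0.02 and 0.05. Mrpl40, a protein of the large mitochondrial ribosome, had 20.5 ± 3.05 CPM in WT (SD, n = 6), 19.95 ± 2.11 in Dp16 (SD, n = 6) and 18.4 ± 1.99 in Dp16_2xIFNRs (SD, n = 5), at log2 fold changes of -0.04 and -0.15 that did not pass. Of 46 other genes of that subunit, 1 was called, Mrpl34, lower in Dp16_2xIFNRs (log2 fold change -0.40, edgeR adjusted p = 0.0302). The median over the 46 was -0.07 in that comparison, where 6 were positive, and -0.03 in Dp16, where 15 were. Over all tested genes the medians were 0.00 and -0.01.

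Aifm3, a flavoprotein related to apoptosis-inducing factor, spread widely within each group. The WT mice had 51, 65.9 and 95.7 CPM (lowest, median, highest), the Dp16 mice 46.6, 54 and 79.4, and the Dp16_2xIFNRs mice 61.1, 92.7, 78.5, 79 and 53.6. Every group thus spanned most of the range of all 17 mice. The log2 fold change was -0.25 ± 0.16 in Dp16 against WT (SE; edgeR adjusted p = 0.647), 0.09 ± 0.16 in Dp16_2xIFNRs against WT (SE; edgeR adjusted p = 0.817) and 0.34 ± 0.16 in Dp16_2xIFNRs against Dp16 (SE; edgeR adjusted p = 0.476).

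The remaining members are signalling, cell cycle and plasma proteins. Crkl, an adaptor that links tyrosine kinases to Rap1, had 55.4, 61 and 70.3 CPM (lowest, median, highest) in WT, 57.6, 62.9 and 67.4 in Dp16 and 55.1, 66, 54.7, 70.7 and 58.1 in Dp16_2xIFNRs. Its log2 fold changes were 0.02 ± 0.07 (SE; edgeR adjusted p = 0.944) and -0.03 ± 0.07 (SE; edgeR adjusted p = 0.88), and 0 of 8 partners of Crkl were called. Ranbp1 had 40.6, 47.1 and 49.1 CPM in WT, 42.1, 44.5 and 46.9 in Dp16 and 51.4, 39.3, 39.96, 42.4 and 50.5 in Dp16_2xIFNRs. The Dp16_2xIFNRs mice split, with 2 below and 2 above the WT range. Log2 fold changes of Ranbp1 were -0.05 ± 0.07 (SE; edgeR adjusted p = 0.847) and -0.06 ± 0.07 (SE; edgeR adjusted p = 0.717), and 0 of 8 genes of the Ran cycle were called. Cdc45 had log2 fold changes of -0.09 and -0.04, and 0 of 11 replication partners were called. Serpind1, the thrombin inhibitor heparin cofactor II, had 0.13 and 0.16. It lies inside Pi4ka on the other strand.

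Dgcr6, whose function is not settled, and Gnb1l had negative log2 fold changes in Dp16_2xIFNRs that did not pass the test. Dgcr6 had 44.1, 47.5 and 50.5 CPM (lowest, median, highest) in WT, 38.2, 43 and 46 in Dp16 and 46.4, 40.2, 38.1, 38.5 and 41.5 in Dp16_2xIFNRs. Below the WT range lay 5 of 6 Dp16 and 4 of 5 Dp16_2xIFNRs mice. Log2 fold changes were -0.15 ± 0.06 (SE; edgeR adjusted p = 0.404) and -0.22 ± 0.06 (SE; edgeR adjusted p = 0.096). The second value passed without Dp16_2xIFNRs replicate 1 (-0.26, edgeR adjusted p = 0.0298; 0.0298 to 0.296 over all alternatives). Dgcr6 overlaps Prodh on the other strand. Gnb1l, a WD-repeat protein similar to G protein beta subunits, had 2.72, 2.95 and 3.67 CPM in WT, 2.25, 3.03 and 3.37 in Dp16 and 2.62, 1.83, 2.25, 1.94 and 3.14 in Dp16_2xIFNRs. Its log2 fold change was -0.05 ± 0.14 in Dp16 (SE; edgeR adjusted p = 0.941) and -0.39 ± 0.15 in Dp16_2xIFNRs (SE; edgeR adjusted p = 0.209). In Dp16_2xIFNRs, 4 of 5 mice were below the WT range, and the difference from Dp16 was -0.34 ± 0.15 (SE; edgeR adjusted p = 0.458).

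The genes of the divergent pairs are set side by side here for Dp16 against WT, as log2 fold changes. They were -0.05 for Ranbp1 and -0.01 for Trmt2a, whose RefSeq starts lie on either side of the CpG-rich stretch printed above. Tango2 was at -0.02 and Arvcf at -0.02. Mrpl40 was at -0.04 and Hira at -0.18. Cdc45 was at -0.09 and Ufd1 at 0.04, with WT levels of 0.751 and 33.7 RPKM. Pi4ka was at -0.02 and Snap29 at 0.08. Of these 10 genes, none passed the edgeR test over all 17 libraries in any genotype comparison. Differences between the genes of a pair were not tested.

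Sex was a term of the same fit. In males against females edgeR called 0 of 33 members, against 0.0685% of all tested genes, and 1 of 33 had an unadjusted p under 0.05, against 3.26%. All 33 members overlapped between the sexes, where 0.0738% of all tested genes did not. limma-voom also called 0 there. The member under 0.05 was Cldn5, at a log2 fold change of 0.32 ± 0.15 (SE; edgeR adjusted p = 1.00). Its lowest, median and highest values were 25.4, 34.1 and 42.9 CPM in 9 females and 24.5, 40.2 and 56.4 CPM in 8 males, with overlap. Of the 17 other endothelial and tight junction genes, 3 were positive in males against females, with a median of -0.08, 2 under an unadjusted p of 0.05 and 0 called by edgeR. All 12 choroid plexus markers were negative there, with a median of -0.41 and 0 called, and their part in the value of Cldn5 was not tested. The median log2 fold change of the members was 0.02, against 0.00 over all tested genes.

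Over all 19 lists of partners, 217 tested entries gave 1 called gene, Mrpl34, in Dp16_2xIFNRs against WT and 0 in the other genotype comparisons. At an unadjusted edgeR p under 0.05 there were 17 entries in Dp16 against WT, 34 in Dp16_2xIFNRs against WT and 22 in Dp16_2xIFNRs against Dp16 (7.83%, 15.7% and 10.1%), against 9.58%, 17% and 10.5% of all tested genes.

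**Figure D5:**
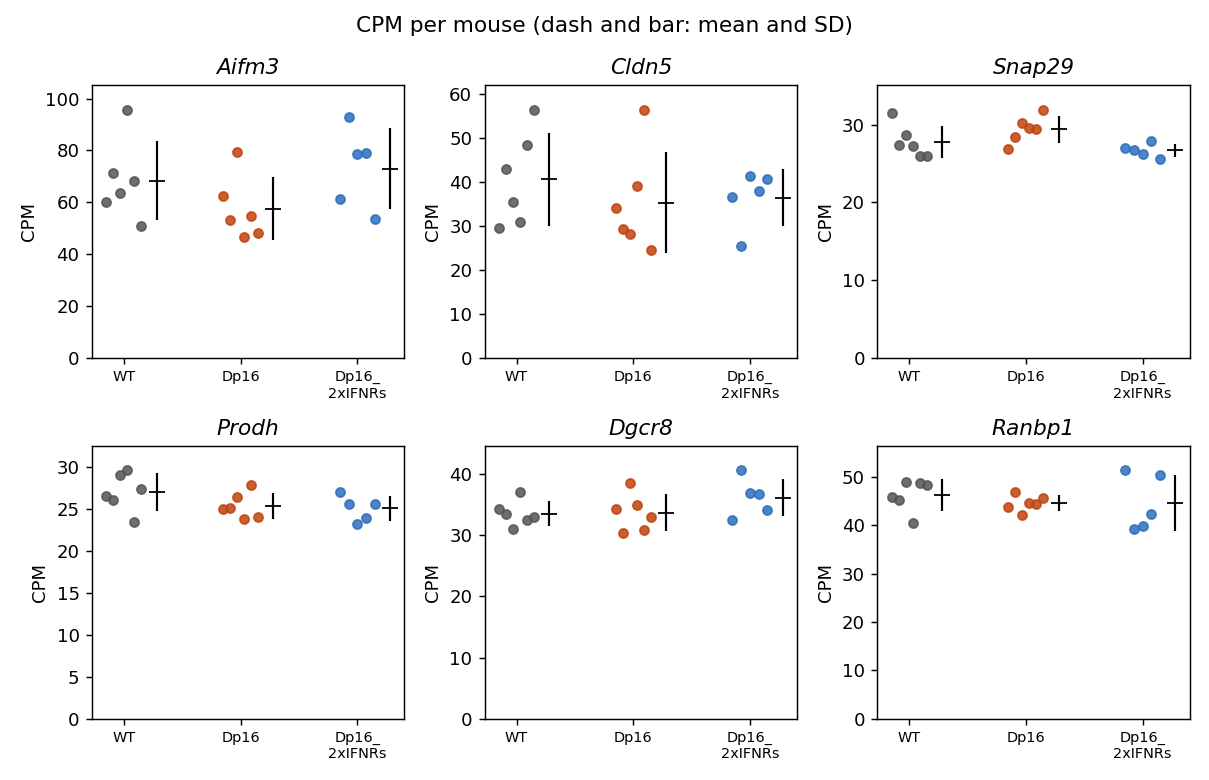
CPM per mouse of Aifm3, Cldn5, Snap29, Prodh, Dgcr8 and Ranbp1 in WT, Dp16 and Dp16_2xIFNRs, with the mean and SD beside the points (axes start at 0). Aifm3 (46.6 to 95.7) and Cldn5 (24.5 to 56.4) spread most between mice, and all 6 genes overlap between groups.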

How the data were processed

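Libraries were made with a strand-specific kit and read as pairs of 150 bases, per the labels' protocols. The submitters' processing notes name the build GRCm38 and HTSeq 0.6.1, HISAT2 2.1.0 and SAMtools 1.5. The authors deposited raw counts per gene and, for the same libraries, RPKM. Positions came from GENCODE release 21, while the table names give release 24. How strand was handled in the counting and the origin of the mice beyond the labels are not given in the sources used here. Each mouse was 1 replicate.

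The counts were fitted with edgeR 4.0.16 in R 4.3.3 (filterByExpr with a minimum count of 10, 18983 genes, TMM, quasi-likelihood fit of genotype and sex over all 17 libraries), and called at a Benjamini-Hochberg adjusted p under 0.05 over all tested genes. CPM used the TMM-scaled library size. Intervals at 95% came from the fit's variance. The test against 1.5-fold used an offset. The fit was checked on simulated counts, with changes set only in genes with a mean over 1 CPM. Changes in genes as low as Tbx1 and Gp1bb, at means of 0.899 and 0.481 CPM, were not covered by that check. Alternatives used DESeq2 1.42.0, limma 3.58.1 (voom, and trend on log2 RPKM with 0.1 or 1 added), other filters, scalings and covariates, and fewer libraries. The members, the lists of partners and markers and the tests were chosen with earlier results of these data known. Members were described in full if called, if among the 3 smallest p of a genotype comparison or if landmarks of the region (Tbx1, Hira, Dgcr8, Ranbp1, Cldn5, Prodh, Rtn4r, Zdhhc8, Crkl, Snap29, Txnrd2, Gp1bb). Partners were named from the called genes and then the 3 of highest mean CPM per list, and 1 such gene is not reported here. All 19 partner lists and the choroid plexus, endothelial, neuronal and platelet markers are reported. Summed markers of oligodendrocytes, astrocytes and microglia (4404 to 7402, 1364 to 1738 and 209 to 279 CPM) and of meningeal and mural cells (206 to 272 CPM) overlapped between groups.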

Additional observations from a re-analysis of the deposited data

Results flagged for a closer look

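In groups of 5 or 6 mice, 3 of 99 combinations of member and group had 1 mouse far from the others by Dixon's criterion, where chance alone gives about 5%. Lztr1 was 191 CPM in WT replicate 6, with the next WT mouse at 165 CPM. Ufd1 was 77.8 CPM in the same mouse, with the next at 70.2 CPM. That library is one of the 3 nearly free of choroid plexus markers. Dgcr2 was 80.3 CPM in Dp16 replicate 4, with the next Dp16 mouse at 76.1 CPM.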

How the results depend on the processing

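Each genotype comparison was run under 31 alternatives, and no called value changed direction. Tbx1 was called in Dp16 against WT in all of them but the fit without the 3 libraries nearly free of choroid plexus (-1.44, edgeR adjusted p = 0.0571). Its edgeR adjusted p ran from 0.00268 to 0.0434 when 1 library was left out, and its log2 fold change was -0.36 by limma-trend on log2(RPKM + 1). The count of called members in Dp16 against WT was 2 instead of 1, with Lztr1 added, by the DESeq2 test, by limma-trend on log2(RPKM + 0.1) or log2(RPKM + 1) and at a threshold of 0.1, and 1 to 2 when 1 library was left out. In Dp16_2xIFNRs against WT it was 2 instead of 0 by the DESeq2 test and at a threshold of 0.1 (Lztr1 and Dgcr6), 1 by limma-trend at either RPKM setting (Lztr1), and 0 to 1 when 1 library was left out. Of 35644 genes with any count, DESeq2 called 209 in Dp16 against WT and 636 in Dp16_2xIFNRs against WT. That set was not filtered as the 18983 genes were, so its shares are not comparable with theirs. Of 18983 genes, limma-trend called 120 and 121 in the first comparison and 219 and 210 in the second. At a threshold of 0.1, 152 and 474 of 18983 passed. With 1 library left out, the fit with an added member called 112 of 18928 genes in the first comparison. In the second such fits called from 158 of 18928 to 517 of 19204. The median of the members in Dp16_2xIFNRs against WT ran from -0.064 to -0.010 over the libraries left out. Members called below 1.5-fold were 30 to 31 of 33 in both comparisons, over 6 alternatives and 17 libraries left out in turn. Replicate numbers did not pair libraries on average. Deviations from a fit of genotype and sex had a mean correlation of -0.0155 over 16 pairs of the same number, against 0.00479 over 80 others. An identifier in the labels, whose meaning they do not state, is shared by 5 pairs of libraries across groups. Mice of a pair were of the same sex and 0 to 0.1 weeks apart in age. Deviations of the paired libraries correlated at -0.0946 on average (-0.387 to 0.269), above 0.1 in 1 pair. The identifier was not used as a block. With the replicate number as a block, Tbx1 was again the 1 called member (-1.44, edgeR adjusted p = 0.0456), and 0 members were called in the other genotype comparisons. The members' medians were -0.03, -0.03 and -0.01, and 98, 143 and 4 of 18983 genes were called. Depth limits Tbx1, Gp1bb and Cdc45 most, and where genes overlap on opposite strands the values depend on a strand setting that is not given in the sources used here.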

Other observations

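A pattern across mice, noticed in these data and then examined on the same data, concerns the scaling factor of the library. The TMM factor, which edgeR sets from the bulk of genes, ran only from 0.970 to 1.04 over the 17 libraries. Aifm3 followed it closely (Pearson r = 0.961, Spearman rho = 0.936, n = 17). Both permutation p were 1e-05, the smallest that 100000 resamples can give, and 0.00111 and 0.0025 adjusted over 18983 genes. No other tested gene had a higher r. Within the groups r was 0.963 in 6 WT mice and 0.946 in 6 Dp16 mice, and without the 2 libraries farthest from the median factor it was 0.932. In all, r was positive in 5 members (Aifm3, Trmt2a, P2rx6, Arvcf and Dgcr8) and negative in 3 (Klhl22, Ufd1 and Ranbp1) at an adjusted permutation p under 0.05 (24.2% of members), against 21.6% of all tested genes. By rho, 4 members passed, Aifm3, Trmt2a, Klhl22 and Ufd1. Trmt2a (r = 0.839, or 0.707 without those 2 libraries) and Ranbp1 (r = -0.653, or -0.459), which start back to back, had opposite signs. Summed cell type markers also moved with the factor, but not in every list. Over 9 marker lists, r was -0.942 for neurons (rho = -0.953, permutation p = 1e-05 for both, 9e-05 adjusted; -0.909 without those 2 libraries) and -0.798 for astrocytes (rho = -0.797, permutation p = 0.00015 and 0.00028, adjusted 0.000675 and 0.00126; -0.748 without them). For choroid plexus it was 0.598 (rho = 0.527, permutation p = 0.0103 and 0.0321, adjusted 0.0154 and 0.0482; 0.651 without them). Granule and pyramidal neurons had r = -0.643, microglia -0.637 and platelet markers 0.652, each at an adjusted permutation p of 0.0107. Without those 2 libraries r was -0.601, -0.481 and 0.516. Endothelial cells (r = 0.0494), oligodendrocytes (0.0852) and meningeal and mural cells (0.169) did not pass (adjusted permutation p = 0.851, 0.837 and 0.659). CPM are divided by the factor, so the relations share that step. Tbx1 had r = -0.0242 and Lztr1 r = -0.45. Group means of the factor were 1.00 in WT, 0.990 in Dp16 and 1.01 in Dp16_2xIFNRs, the order of Aifm3 in the report. The part of the factor in that order was not tested.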
